A study of Mus musculus with 12 samples.

Results

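A set of 9 genes of the insulin-like growth factor (IGF) system were followed through 3 models of cardiac overload and injury in the mouse left ventricle. They comprised the ligand genes Igf1 and Igf2, the receptor genes Igf1r and Igf2r, and 5 binding protein genes, Igfbp3, Igfbp4, Igfbp5, Igfbp6 and Igfbp7. They were taken by gene symbol from the annotation of the array platform, with the brightest probe set standing for each gene and the others serving as a check. The 9 genes were 9 of 18194 genes with a probe set assigned to 1 symbol, and they had 27 of the 45101 probe sets. All 9 passed the filter on dim genes that left 11624 genes for testing.

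The study measured total RNA of the left ventricle of Balb/c mice of 6 to 8 weeks on 12 one-colour Affymetrix arrays, and each of the 12 groups was 1 array. Transverse aortic constriction (TAC), a pressure load made by a ligature on the aorta, was sampled at 1 day, 1 week and 1 month, each with a sham operation of the same time. Myocardial infarction (MI) by occlusion of the left coronary artery was sampled at 1 week and 1 month, with shams in which the pericardium was opened and the artery was not tied. Infusion of angiotensin II (Ang II) at 2 mg/kg per day by osmotic minipump was sampled at 1 week, with a saline vehicle control. The series description speaks of 30 min of occlusion followed by reperfusion and lists a harvest at 1 day for MI, whereas the sample labels name no reperfusion and give the 1 day harvest to TAC and its sham. The sample labels were followed here. The labels do not say whether an array holds 1 animal or a pool. The 6 pairs of a procedure array and its control were therefore the only replication, and they differ in model and time.

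IGF1 and IGF2 are secreted peptides that signal through the IGF1 receptor, a receptor tyrosine kinase that activates the PI3K-Akt and Ras-MAPK pathways. The receptor encoded by Igf2r binds IGF2 and mannose 6-phosphate and carries IGF2 to lysosomes for degradation. The classical IGF binding proteins hold the ligands in the extracellular space and release them when they are cleaved, and IGFBP7 is a related matrix-associated protein that binds IGFs with low affinity. In the heart, IGF1 is known for promoting cardiomyocyte growth and survival, and both fibroblasts and macrophages can produce it.

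Igf1 and Igfbp7 were higher in the procedure array than in its control in 6 of 6 pairs, as were 8.67% of all genes tested, and both rose in the test over the pairs. The mean change was 0.98 ± 0.15 (log2 ratio, SE of the fit, n = 6 pairs) for Igf1, a 1.98-fold difference, and 0.82 ± 0.10 for Igfbp7, a 1.77-fold difference. The other 3 genes for ligand and receptors, Igf2, Igf1r and Igf2r, had mean changes between -0.10 and 0.04 and did not pass the test. Igfbp3, Igfbp4, Igfbp5 and Igfbp6 had positive means between 0.23 and 0.64 and did not pass it either. In this test 2 of 9 genes were called higher and 0 lower at a limma adjusted p under 0.05, where 5.16% of all genes tested were called higher and 5.7% lower. The median of the 9 mean changes was 0.40, and that of all genes tested was -0.0038.

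**Figure D1:**
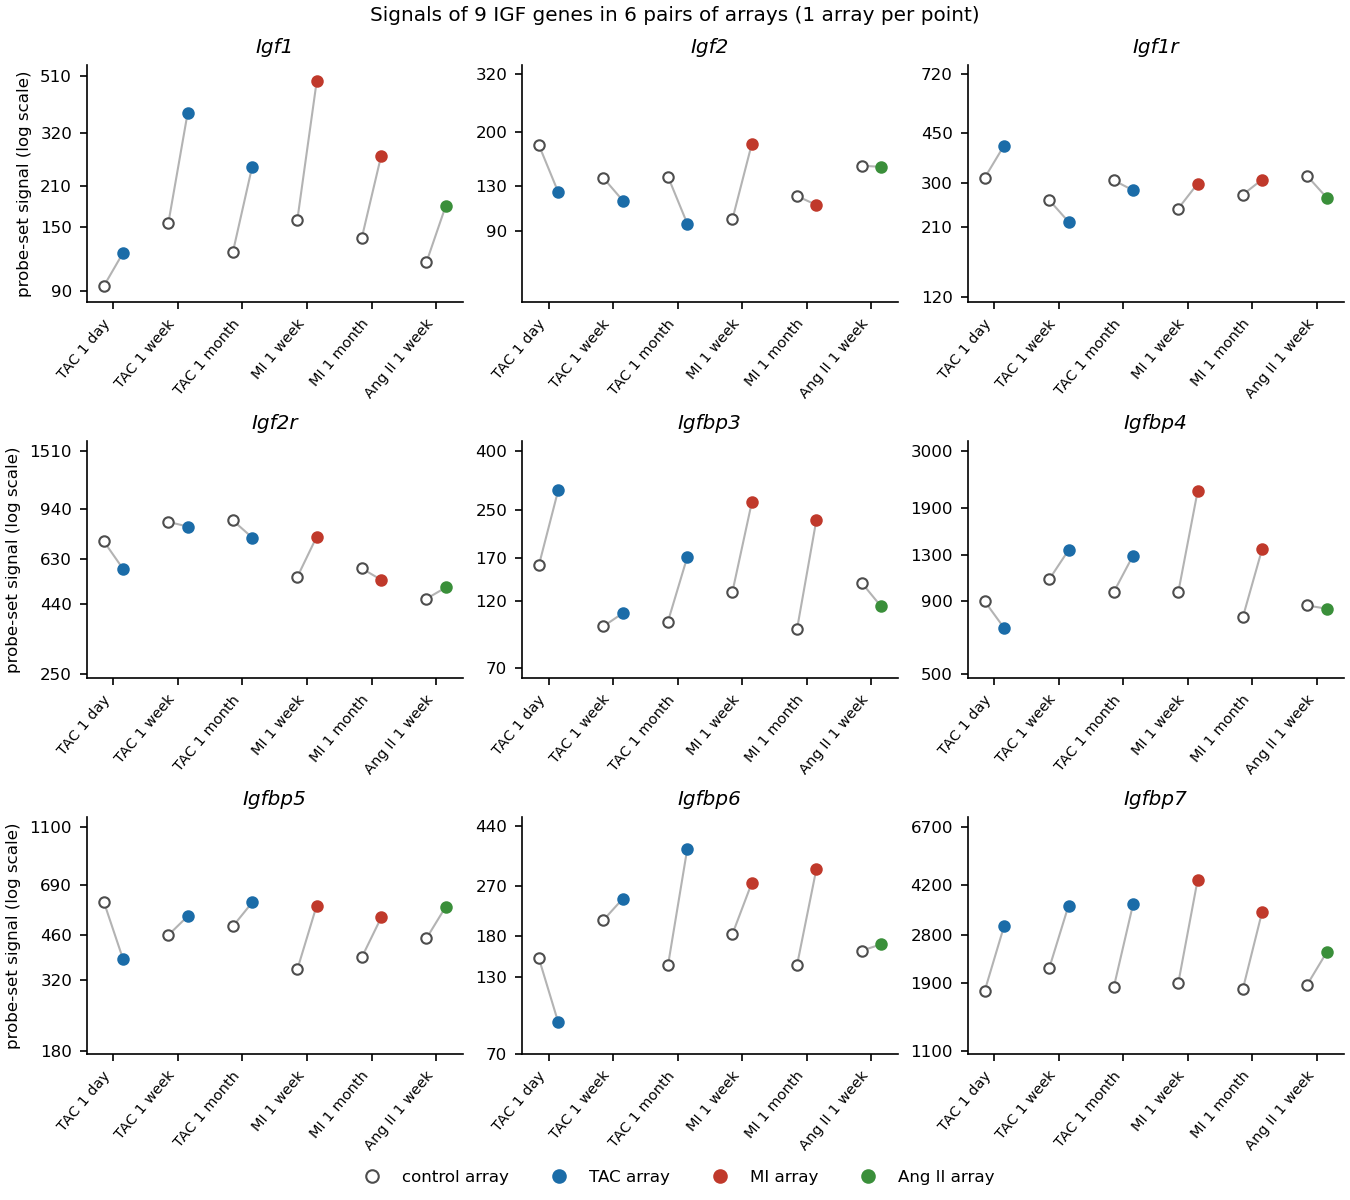
Scaled probe-set signals (log scale) of the 9 genes in the 6 pairs of arrays; each point is 1 array, open circles are controls and filled circles are procedure arrays, blue for TAC, red for MI and green for Ang II. The 6 filled points of Igfbp7 lie between 2431 and 4355, above all 6 open points, and those of Igf1 lie above the open point of the same pair each time.

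The upstream sequences of 3 genes are shown because Igf1 and Igfbp7 were the genes called, and Igfbp4 had the highest ratio in MI 1 week among the 4 binding protein genes that were not called. Each runs 5′ to 3′ over 250 bases before a RefSeq transcript start (build GRCm38.p6). Igf1 lies at chr10:87860861-87861110 on the plus strand and Igfbp4 at chr11:99040994-99041243 on the plus strand, both inside the RefSeq span of the gene. Igfbp7 lies at chr5:77408046-77408295 on the minus strand. Capitals mark every match, on either strand, to the motifs searched. These were the TATA box (spelled TATAAA), the GC box (spelled GGGCGG), the CCAAT box, the AP-1 site (spelled TGANTCA) and the STAT site (spelled TTCNNNGAA), and none of them overlapped another in the windows printed.

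Igf1: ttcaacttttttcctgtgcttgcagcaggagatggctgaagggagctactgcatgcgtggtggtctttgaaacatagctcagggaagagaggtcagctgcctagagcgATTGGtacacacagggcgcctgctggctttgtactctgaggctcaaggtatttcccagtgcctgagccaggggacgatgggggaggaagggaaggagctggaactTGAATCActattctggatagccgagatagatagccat

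Igfbp4: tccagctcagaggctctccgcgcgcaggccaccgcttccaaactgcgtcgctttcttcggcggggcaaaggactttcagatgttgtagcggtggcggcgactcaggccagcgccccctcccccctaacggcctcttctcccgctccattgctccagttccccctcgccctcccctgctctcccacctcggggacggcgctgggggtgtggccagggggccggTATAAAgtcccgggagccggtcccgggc

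Igfbp7: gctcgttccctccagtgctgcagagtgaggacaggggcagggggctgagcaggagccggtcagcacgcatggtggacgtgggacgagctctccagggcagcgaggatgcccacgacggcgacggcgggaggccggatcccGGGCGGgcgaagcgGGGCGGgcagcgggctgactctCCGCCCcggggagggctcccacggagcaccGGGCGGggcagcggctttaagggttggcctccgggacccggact

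The Igf1 window held a CCAAT box on the reverse strand at 142 to 138 bases before the start and an AP-1 motif at 37 to 31 bases before it. Its GC content was 52.8%, near the median of 52.4% over the 32851 windows of the same length. The Igfbp7 window held 4 GC boxes and none of the other motifs, and its GC content was 74.0%. The Igfbp4 window held a TATA box at 28 to 23 bases before the start, with a GC content of 69.2%. Of all windows, 6.75% held an AP-1 motif, 32.7% a GC box, 12.4% a TATA box, 33.8% a CCAAT box and 7.02% a STAT motif. Over the 12 windows of the 9 genes, 5 had a GC box and 2 a TATA box. These matches describe the letters of the windows and no binding was measured.

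Igf1 (probe set 1437401_at) had a signal of 122 in TAC 1 day against 93.3 in its sham, 377 against 155 in TAC 1 week and 245 against 123 in TAC 1 month. It was 487 in MI 1 week against 159, 268 in MI 1 month against 138, and 178 with Ang II against 113. The signals are scaled to a common trimmed mean, and levels of different probe sets cannot be set against each other. Controls spanned 93.3 to 159, and 5 of the 6 procedure arrays lay above all of them. The exception was TAC 1 day, whose 122 fell among the controls.

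The log2 ratios of Igf1 were 0.39 at TAC 1 day, 1.28 at TAC 1 week, 1.00 at TAC 1 month, 1.61 at MI 1 week, 0.95 at MI 1 month and 0.66 with Ang II. Controls of the same time differed from each other by up to 0.50 on the same scale, over the 4 comparisons available (3 at 1 week and 1 at 1 month), and 5 of the 6 ratios were larger than that. The limma test over the 6 pairs, with the pair as a block and p-values adjusted over all genes tested, gave an adjusted p of 0.00731. The exact two-sided sign-flip test gave p = 0.03125, the smallest it can give with 6 pairs. Without the filter on dim genes the adjusted p was 0.0665, and without the pair term it was 0.0522. All 4 probe sets of Igf1 were above the filter, and 24 of their 24 ratios were higher in the procedure array. The probe sets of a gene read the same 6 pairs and add no replication.

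Igfbp7 (1423584_at), which encodes the secreted low-affinity binding protein, had 3000 in TAC 1 day against 1780 in its sham, 3545 against 2138 in TAC 1 week and 3585 against 1831 in TAC 1 month. It had 4355 in MI 1 week against 1895, 3371 in MI 1 month against 1803, and 2431 with Ang II against 1875. The groups did not overlap. Every procedure array was above all 6 controls, a pattern that 1.36% of all genes tested had. Igfbp7 was the sole gene of the 9 with separate groups, and the other 8 overlapped.

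On the log2 scale the Igfbp7 ratio was smallest with Ang II (0.37) and largest in MI 1 week (1.20), and all 6 were larger than the largest difference between controls of the same time, 0.19. The limma adjusted p was 0.00327, and the exact two-sided sign-flip p was again 0.03125, its smallest value. Without the filter on dim genes the limma adjusted p was 0.0589. A dimmer probe set (1423585_at) was higher in 5 of 6 pairs and had -0.16 with Ang II, so that 11 of the 12 ratios of both were positive. The third probe set (1437804_at) was at or near the floor on every array, with a highest signal of 9.01.

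**Figure D2:**
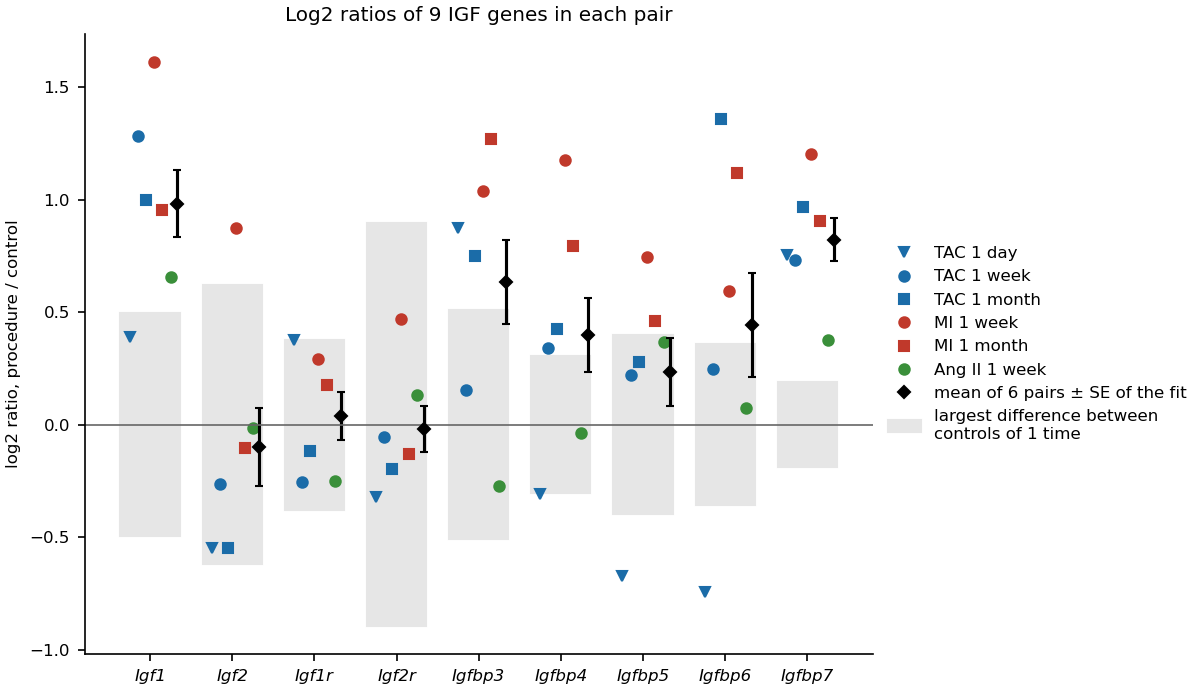
Log2 ratio of each procedure array to its control for the 9 genes; symbols give the pair (blue TAC, red MI, green Ang II), black diamonds the mean of the 6 pairs with the SE of the fit, and grey bands the largest difference between controls of the same time. All 6 points of Igfbp7 lie above its band and 5 of 6 of Igf1, while the points of Igf1r and Igf2r lie inside theirs.

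Igf2 (1448152_at), the second ligand, had no common direction. Its signals were 123 in TAC 1 day against 180 in the sham, 115 against 138 in TAC 1 week, 95.6 against 140 in TAC 1 month, 111 against 120 in MI 1 month and 151 against 153 with Ang II. MI 1 week stood apart at 182 against 99.3, a log2 ratio of 0.88, and was the single pair with a higher procedure array. The 99.3 of that pair was the lowest of the 6 controls, and controls of the same time differed by up to 0.62. The mean change was -0.10 ± 0.17, with a limma adjusted p of 0.744. The other probe set of Igf2 was close to the floor, with signals up to 17.0.

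Igf1r (1452982_at), the signalling receptor, was higher in 3 pairs and lower in 3, and TAC 1 month, one of the lower pairs, turned to 0.20 with signals as deposited. Procedure signals spanned 219 to 405 and controls 244 to 317, and the highest value was that of TAC 1 day (405 against 313). None of its 6 ratios, from -0.25 to 0.37, exceeded the largest difference between controls of the same time, 0.38. The mean change was 0.04 ± 0.11 (limma adjusted p of 0.853), and its sign turned without the TAC 1 day pair (-0.03) or the MI 1 week pair (-0.01). Its probe sets differed: the second and the third brightest were each higher in 5 of 6 pairs, with means of 0.43 and 0.30, whereas the fifth had a mean of -0.63 at signals between 2.80 and 31.4.

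Igf2r (1424112_at), the clearance receptor for IGF2, spanned 501 to 819 in procedure arrays and 457 to 861 in controls, which overlap almost wholly. Its ratios ran from -0.32 at TAC 1 day to 0.47 at MI 1 week, with TAC 1 week and TAC 1 month below 0 but above it as deposited (0.16 and 0.12), and the mean was -0.02 ± 0.10 (limma adjusted p of 0.928). Control arrays alone differed by up to 0.90 on the log2 scale, between the TAC sham of 1 week (851) and the Ang II control (457). The sign of its mean turned with signals as deposited (0.08), with the mean of all probe sets (0.07), and without the pair of TAC 1 day (0.04), TAC 1 month (0.02) or MI 1 month (0.00). The other probe set, 1424111_at, had signals of 155 to 325 and was higher in 3 pairs and lower in 3. Its ratios included 0.96 in MI 1 week, 0.32 in TAC 1 week and -0.42 in TAC 1 day, with a mean of 0.16.

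Igfbp3 (1423062_at), the main IGF carrier of the circulation and also a product of tissue cells, was higher in 5 of 6 pairs. It had 293 against 160 in TAC 1 day, 109 against 97.7 in TAC 1 week and 171 against 101 in TAC 1 month. In MI 1 week it had 266 against 129, in MI 1 month 230 against 95.4, and with Ang II 115 against 139. Its 4 highest procedure arrays, those of TAC 1 day, TAC 1 month and both MI times, were above all controls. The mean change was 0.64 ± 0.19, with a limma adjusted p of 0.0553 and an exact two-sided sign-flip p of 0.09375. Leaving out the Ang II pair, the one lower pair, could only raise the mean, to 0.82 ± 0.16 with a limma adjusted p of 0.0144. Over 15 alternatives the mean ran from 0.51 to 0.82. With no filter on dim genes the limma adjusted p was 0.171. Its other probe set, 1458268_s_at, was higher in 4 of 6 pairs, with -0.24 in TAC 1 week, -0.02 with Ang II and a mean of 0.47.

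Igfbp4 (1437405_a_at), an inhibitory binding protein cleaved by pappalysin, was lower in TAC 1 day, with 723 against 896, and nearly equal with Ang II, with 844 against 866. It was higher at the later times: 1354 against 1069 in TAC 1 week, 1296 against 965 in TAC 1 month, 2174 against 962 in MI 1 week and 1365 against 786 in MI 1 month. Those 4 arrays were above all 6 controls. All 6 of its probe sets had a lower signal in TAC 1 day and a higher one in MI 1 week than in the sham. The mean change over the 6 pairs was 0.40 ± 0.17 (limma adjusted p of 0.142), and it was 0.24 without MI 1 week.

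Igfbp5 (1452114_s_at), a binding protein that also attaches to extracellular matrix, had 378 in TAC 1 day against 602 in its sham, a log2 ratio of -0.67. The other 5 ratios were positive, from 0.22 at TAC 1 week to 0.74 at MI 1 week. Its procedure arrays spanned 378 to 597 and its controls 348 to 602, so the groups overlapped throughout. The mean was 0.23 ± 0.15 (limma adjusted p of 0.343). The dimmer probe set 1422313_a_at differed from it, being higher in 6 of 6 pairs, TAC 1 day included (0.49), with a mean of 0.81.

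Igfbp6 (1417933_at), whose product binds IGF2 with preference over IGF1, had a single probe set. Its signal was 90.0 in TAC 1 day against 151, the lowest of the 12 arrays. It was 244 against 205 in TAC 1 week, 366 against 142 in TAC 1 month, 277 against 184 in MI 1 week, 310 against 143 in MI 1 month and 169 against 161 with Ang II. The arrays of 1 month had the highest ratios, 1.36 for TAC and 1.12 for MI. The mean was 0.44 ± 0.23 (limma adjusted p of 0.239), and the 6 ratios had an SD of 0.76, the largest of the 9 genes.

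**Figure D3:**
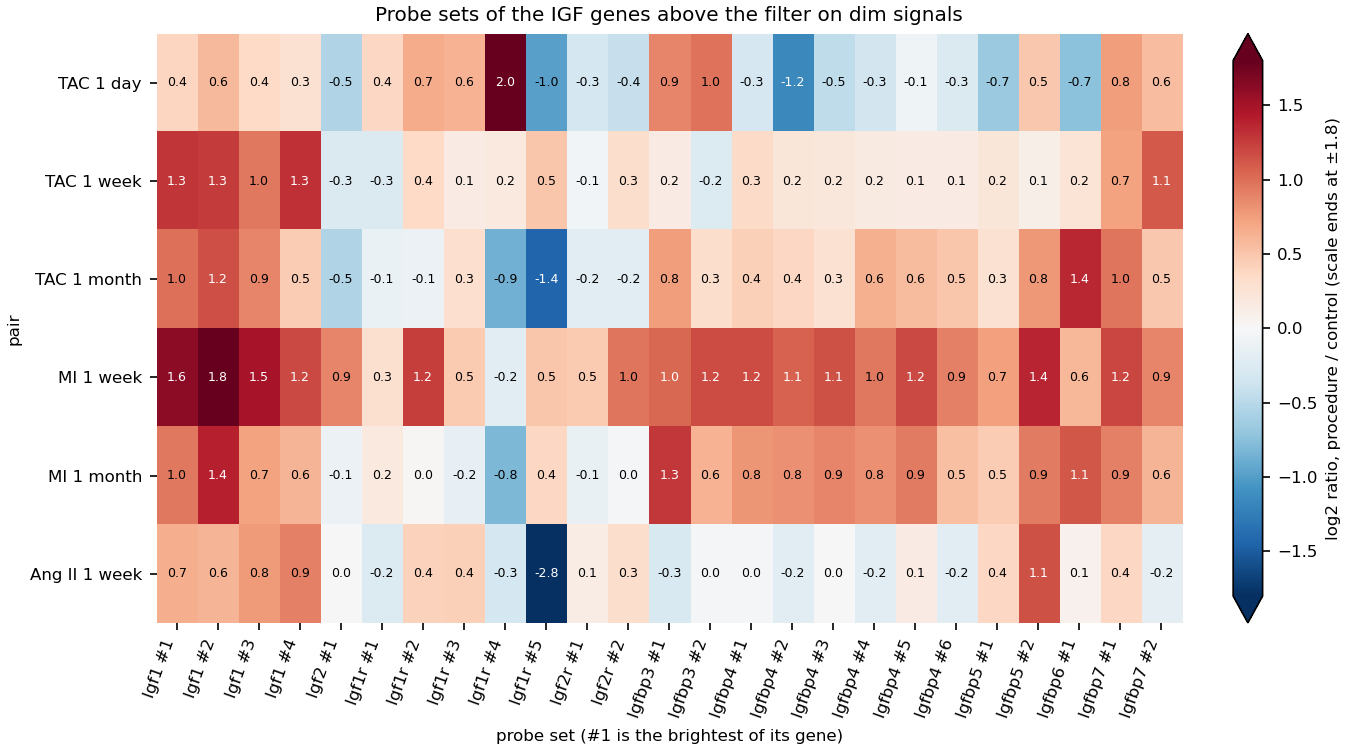
Log2 ratio of procedure to control (colour and printed value) for the 25 of 27 probe sets of the 9 genes above the filter on dim signals, by pair; #1 is the brightest probe set of a gene. All Igf1 cells are positive, and all Igfbp4 cells are negative in TAC 1 day and positive in MI 1 week. Probe sets of Igf1r, Igf2r and Igfbp5, among others, differ within the gene.

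The number of genes called moved most when TAC 1 day, the earliest time, was left out. Without that pair the limma fit called 5 genes higher in place of 2, adding Igfbp4 (0.54 ± 0.14, adjusted p of 0.0393), Igfbp5 (0.41 ± 0.08, adjusted p of 0.0160) and Igfbp6 (0.68 ± 0.17, adjusted p of 0.0355), while 5.5% of all genes tested were called higher in that fit. Without the Ang II pair it called 3, adding Igfbp3, where 5.84% of all genes were called higher. Without any other single pair it called Igf1 and Igfbp7 and none of the other 7, and 1.33% to 1.63% of all genes were called higher. Some means were lower with another pair left out: without MI 1 week that of Igfbp5 was 0.13, and without TAC 1 month that of Igfbp6 was 0.26. The array of TAC 1 day was deposited with 6 decimals where the other 11 have 1, and whether it was processed differently is not given in the sources used here.

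**Figure D4:**
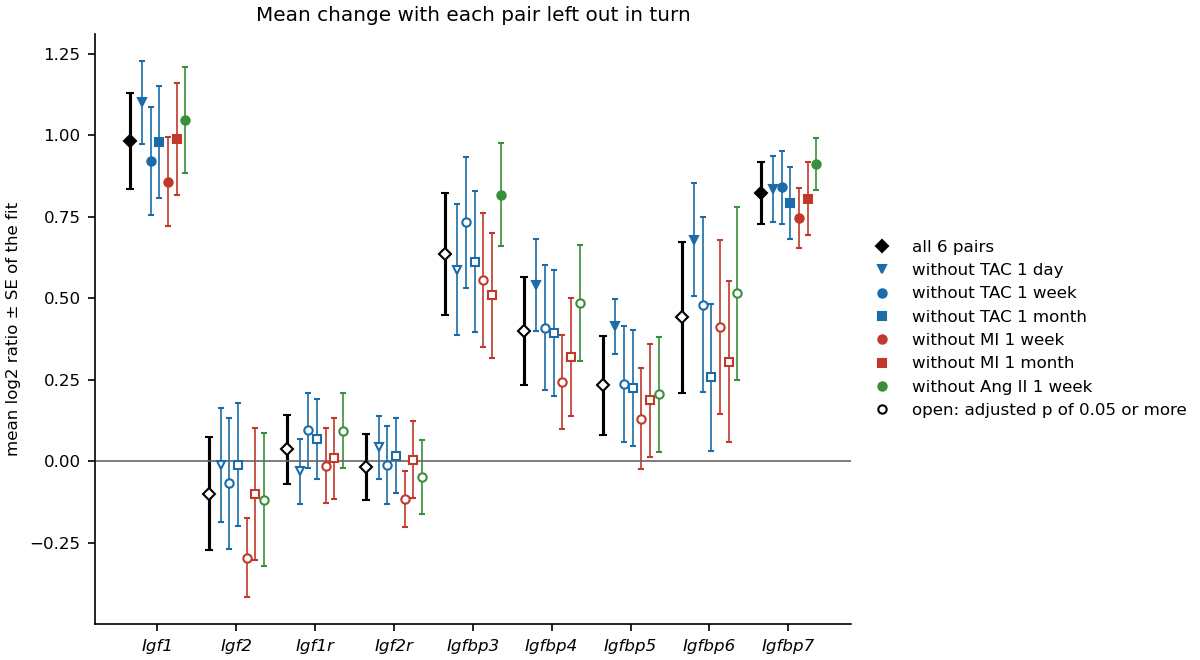
Mean log2 ratio with the SE of the fit for each gene over all 6 pairs (black diamonds) and with each pair left out in turn (coloured symbols); filled symbols have a limma adjusted p under 0.05. Igf1 and Igfbp7 stay filled throughout, and Igfbp4, Igfbp5 and Igfbp6 are filled only without TAC 1 day.

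By single pairs, a gene was counted as 2-fold higher when its log2 ratio was at least 1, its brighter signal was above the median of all signals (25.9) and the procedure array lay above all 6 controls. There is no test for 1 array a group. MI 1 week had 4 of the 9 genes past this rule, Igf1, Igfbp3, Igfbp4 and Igfbp7, where 6.01% of all genes met it. MI 1 month had 2, Igfbp3 and Igfbp6, against 2.89% of all genes. TAC 1 week had Igf1 alone (2.18% of all genes) and TAC 1 month had Igfbp6 alone (1.91%), with Igf1 at a ratio just under the limit. TAC 1 day had 0, although 5.7% of all genes met the rule in that pair, and Ang II had 0 (0.946%). None of the 9 was 2-fold lower by the mirrored rule in any pair. Of all genes, that rule was met by 6.4% in TAC 1 day, 0.826% in TAC 1 week, 1.26% in TAC 1 month, 1.3% in MI 1 week, 0.619% in MI 1 month and 0.774% with Ang II. With signals as deposited, TAC 1 month had 4 such genes, MI 1 week 5 and MI 1 month 3. With quantile normalisation TAC 1 month had 2 and MI 1 week 3, since Igfbp3 was at 0.99 there.

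The median ratio of the 5 binding protein genes was -0.31 in TAC 1 day, 0.25 in TAC 1 week, 0.75 in TAC 1 month, 1.04 in MI 1 week, 0.90 in MI 1 month and 0.07 with Ang II. The medians of all genes tested lay between -0.07 and 0.01. In TAC 1 day 2 of the 5 were higher, Igfbp3 and Igfbp7. All 5 were higher in both later TAC pairs and both MI pairs, except that Igfbp3 in TAC 1 week turned to -0.04 with the mean of its probe sets. The share of all genes higher in those pairs was not counted. In TAC 1 week Igfbp3 (0.15), Igfbp5 (0.22) and Igfbp6 (0.25) were within the largest difference between controls of the same time (0.51, 0.40 and 0.36). Igfbp4 and Igfbp7 were beyond theirs. In TAC 1 month Igfbp5 (0.28) was also within its difference, and the other binding protein genes were beyond theirs. With Ang II 3 of the 5 were higher.

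To ask whether pressure load and infarction differ, separate effects for TAC (n = 3 pairs), MI (n = 2 pairs) and Ang II were fitted in limma, which leaves 3 residual degrees of freedom. Igfbp7 was the sole gene of the 9 that rose in TAC (0.82 ± 0.10, adjusted p of 0.0130) and the sole one that rose in MI (1.05 ± 0.12, adjusted p of 0.0151), where 1.08% and 0.826% of all genes were called higher. Igf1 had 0.89 ± 0.20 in TAC (limma adjusted p of 0.0672) and 1.28 ± 0.25 in MI (0.0595). Igfbp3 and Igfbp4 had 1.16 ± 0.21 and 0.99 ± 0.19 in MI, with limma adjusted p-values of 0.0542 and 0.0595. The TAC call of Igfbp7 was lost without TAC 1 week (limma adjusted p of 0.0735) or TAC 1 month (0.0928). Calls were fewer over all genes there too, with 0.215% and 0.155% called higher. Leaving out an MI pair leaves a single one, in which Igfbp7 had a ratio of 0.90 (MI 1 month) or 1.20 (MI 1 week). Both calls of Igfbp7 also ended under 3 processing settings. The limma adjusted p-values in TAC and MI were 0.172 and 0.208 with no filter on dim genes, 0.183 and 0.160 with the mean of its probe sets, and 0.144 and 0.136 without the intensity trend. With no filter or without the trend, 0 of all genes were called in TAC or MI. With the mean of probe sets, 0.325% of all genes were called higher in TAC and 0.492% in MI. Without TAC 1 day, 2 of the 9 genes were called higher in TAC and 6 in MI, and 2.62% and 6.84% of all genes were called higher in that fit.

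The TAC mean includes the 1 day pair and MI has no pair of that time, so TAC minus MI mixes model with time. Without TAC 1 day, the TAC mean of Igf1 was 1.14 and that of Igfbp6 0.80, in place of 0.89 and 0.29. Those of Igfbp3 and Igf1r were lower without it, at 0.45 and -0.19 in place of 0.59 and 0.0016. The difference TAC minus MI was negative for all 9 genes, and none passed the limma test of that difference. It called 0 of 11624 genes (0%), and 527 of them (4.53%) had an unadjusted p under 0.05. Igfbp4 had the smallest p of the 9, with a difference of -0.83 ± 0.25 (limma unadjusted p = 0.00975, adjusted p of 0.983), followed by Igf2 with -0.84 ± 0.32 (limma unadjusted p = 0.0303, adjusted p of 0.983). Using the mean of all probe sets, the Igf2 difference turned to 0.04. At these numbers of pairs, a difference in the response of the IGF genes to the 2 models was not detectable after adjustment.

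Ang II at 1 week had no test of its own. Its Igf1 ratio of 0.66 compares with 1.28 for TAC and 1.61 for MI at the same time, and its Igfbp7 ratio of 0.37 with 0.73 and 1.20. Its Igfbp3 and Igfbp4 ratios were -0.27 and -0.04, where MI 1 week had 1.04 and 1.18 and TAC 1 week 0.15 and 0.34. These are single pairs, each with its own control.

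Other genes of the IGF pathway were read from lists of 69 genes, of which 59 had a probe set of 1 symbol and 51 passed the filter on dim genes; the others were not tested. Over the 6 pairs 3 of the 51 were called higher and 8 lower, where 10.9% of all genes tested were called in either direction. The calls were sensitive to single pairs, as were those over all genes. Without TAC 1 week, TAC 1 month or MI 1 week, 0 were called in either direction, and without MI 1 month 0 higher and 2 lower were called. With signals as deposited, 0 of the 51 were called lower, where 0.929% of all genes were, against 5.7% after scaling. With the mean of probe sets, 0 pathway genes were called higher and 1, Htra1, lower, where 3.35% and 3.09% of all genes were.

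Among the relatives of the 9 genes, the insulin receptor gene Insr was the one past the filter, and it fell by 0.29 on the log2 scale (SE 0.08, limma adjusted p of 0.0462, lower in 6 of 6 pairs). When its probe sets were averaged, the change was 0.02. Igfbp1, the neighbour of Igfbp3 on its chromosome in RefSeq, was at the floor on 11 of 12 arrays with a highest signal of 7.06. Igfbp2, the neighbour of Igfbp5, reached 34.1, and Igfals, which encodes the acid-labile subunit of the circulating IGF complex, reached 30.2. All 3 were below the filter, as were Igfbpl1 and Insrr.

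Of the proteases that cut binding proteins and their inhibitors, 7 of 9 passed the filter, with a median change of 0.01. Of the 7, 2 were called higher and 1 lower, where 5.16% of all genes tested were called higher and 5.7% lower. Adam12, a metalloprotease gene, rose by 2.31 ± 0.56 (limma adjusted p of 0.0315), with 1 array at the floor and a lower signal with Ang II than in the control. Stc1, whose product stanniocalcin inhibits pappalysins, rose by 0.64 ± 0.18 (limma adjusted p of 0.0488). When its probe sets were averaged, the change was 0.24 (limma adjusted p of 0.560). Htra1, a secreted serine protease gene, fell by 0.43 (SE 0.09, limma adjusted p of 0.0194), lower in 6 of 6 pairs. Pappa itself, the pappalysin gene, was below the filter with signals up to 32.4.

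All 7 genes of the growth hormone axis, which drives hepatic IGF1 production, passed the filter, with a list median of -0.34. Of them 3 were called lower, where 5.7% of all genes tested were, and 0 higher. Socs3, Socs2 and Jak2 had positive means (1.01, 0.27 and 0.24) and were not called. The receptor gene Ghr fell by 0.34 (SE 0.07, limma adjusted p of 0.0175, lower in 6 of 6 pairs). The genes of its transcription factors, Stat5a and Stat5b, each fell by 0.39, with limma adjusted p-values of 0.0398 and 0.0495. Downstream of the receptor, 27 of 30 genes of the PI3K-Akt-mTOR list passed the filter, with a median of -0.09. Against 5.16% and 5.7% of all genes tested, 1 of the 27 was called higher and 3 lower. The 3 with the largest change were Grb14, an adaptor that inhibits insulin receptor signalling (-0.59 ± 0.16, limma adjusted p of 0.0448), Akt2 (-0.43 ± 0.09, limma adjusted p of 0.0238) and the PI3K regulatory subunit gene Pik3r1 (-0.38 ± 0.08, limma adjusted p of 0.0245). With the mean of probe sets they were -0.32, -0.32 and -0.19, with limma adjusted p-values of 0.386, 0.0608 and 0.358. None of the 8 Ras-MAPK genes past the filter was called, with a median of 0.09, and the 1 gene of Igf2 RNA regulation past it, Igf2bp3, was not called either (0.12 ± 0.12).

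**Figure D5:**
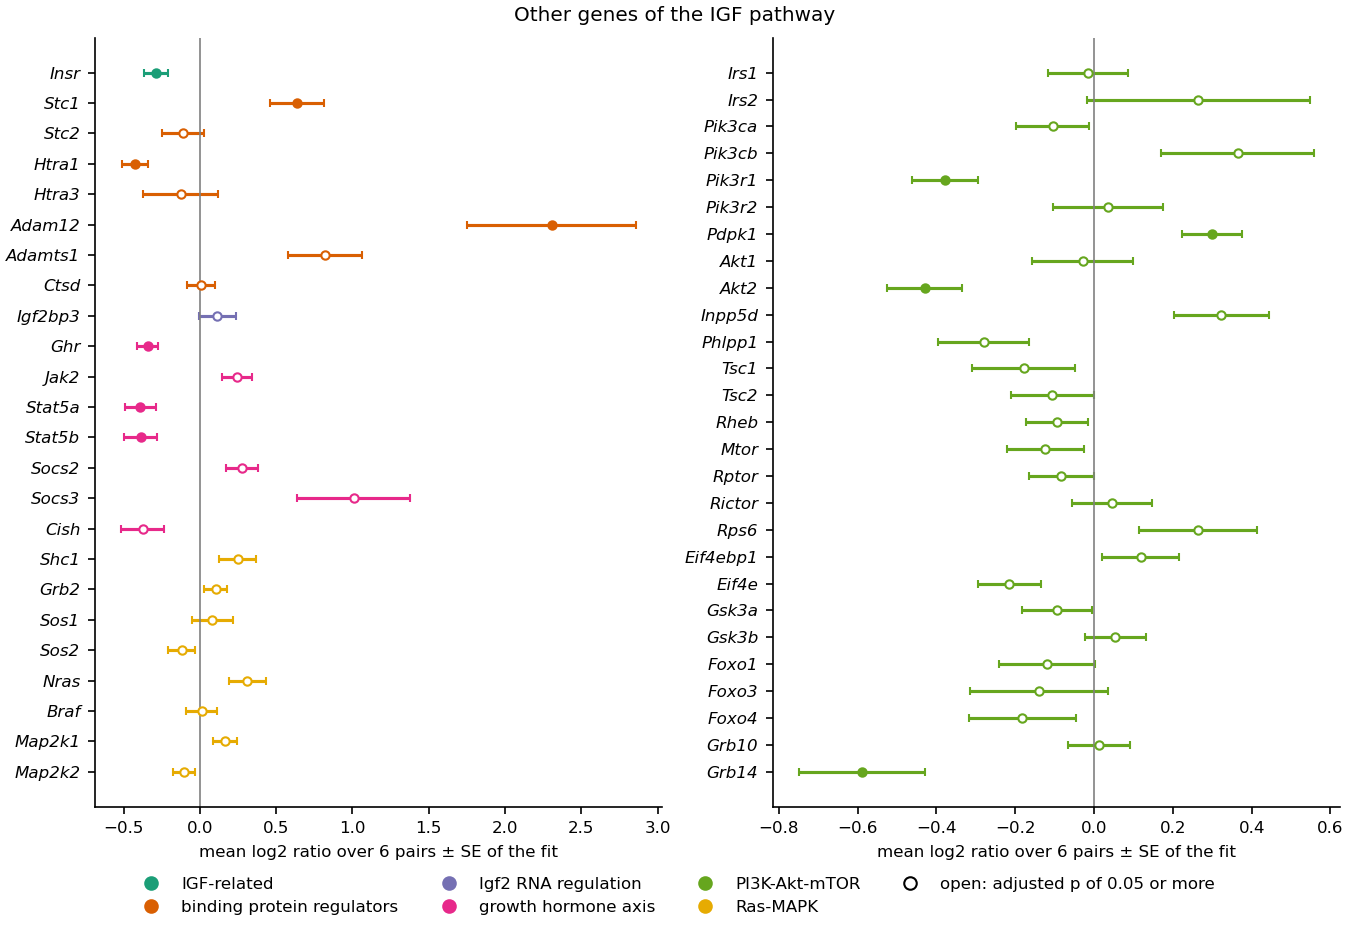
Mean log2 ratio over 6 pairs with the SE of the fit for the 51 other IGF pathway genes past the filter, coloured by list; filled symbols have a limma adjusted p under 0.05. The filled symbols are 3 on the right of 0, among them Adam12 at 2.31, and 8 on the left, from Insr at -0.29 to Grb14 at -0.59.

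The left ventricle holds several cell types, and in bulk tissue a change in cell number and a change in RNA per cell cannot be told apart. All 7 cardiomyocyte markers were well above the filter, with a summed signal of 73855 to 80900 in controls and 62391 to 77113 in procedure arrays, and 2 of the 7 were called lower, where 5.7% of all genes tested were called lower and 5.16% higher. Of 7 fibroblast markers 4 were called higher, while Gsn was lower in 4 of 6 pairs (mean -0.21). The sum of the 7 was 16368 to 19123 in controls and 14158 to 30701 in procedure arrays. It is weighted by bright genes such as Gsn (signals of 5789 to 9464) and Dcn (4540 to 6951). The sum was lowest in TAC 1 day, where Pdgfra, Col1a1 and Col1a2 were higher than in the sham and the others lower. It was highest in MI 1 week. Among the 9 IGF genes, MI 1 week was the highest array for Igf1, Igf2, Igfbp4 and Igfbp7. TAC 1 day was the lowest for Igfbp4 and Igfbp6 and the highest for Igf1r and Igfbp3. Of 5 markers of activated fibroblasts 4 were called higher, while Acta2 was lower in 4 of 6 pairs (mean -0.23). The 5 summed to 4105 to 6055 in controls and 6017 to 14022 in procedure arrays. The 9 macrophage markers, 6 called higher, summed to 3516 to 6020 and 3993 to 12557. None of 7 endothelial markers was called, with sums of 2614 to 3676 and 2935 to 3229. Neither the 4 liver markers nor the 4 lymphocyte markers on the array passed the filter, and their sums were at most 113. Of 6 smooth muscle and pericyte markers 2 were called higher. None was called among the adipocyte (2 past the filter), mesothelial and epicardial (3) and skeletal muscle (2) markers. The part of these markers in the changes of Igf1, Igfbp7 and the other binding proteins was not tested.

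For each of the 9 genes the 3 genes with the most similar pattern over the 12 arrays were taken by Pearson's r of the log2 signals, as a description. They share arrays, scaling and procedures. Igf1 was closest to Col1a2, a collagen I chain (r = 0.97), Csrp1 and Mmp23 (both 0.97). Igfbp7 was closest to Col8a1, a collagen VIII chain, and Dap (both 0.99) and to Postn, the matrix protein periostin (0.97). Among the 9 genes themselves, Igf1 had r = 0.89 with Igfbp4, 0.87 with Igfbp7 and 0.75 with Igfbp6. Igfbp3 had 0.62 with Igfbp7 and 0.67 with Igf1r.

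The closest patterns to the other binding proteins were Ddx50 (r = 0.93), B4galt5 (0.93) and Sec22b (0.91) for Igfbp3 and Dock11 (0.94), Cmip (0.94) and Sfrp1 (0.94) for Igfbp4. For Igfbp5 they were Vopp1 (0.91), Stx6 (0.88) and Kdm4b (0.88), and for Igfbp6 Serping1, the complement C1 inhibitor gene (0.94), Bmt2 (0.93) and Ndrg4 (0.93). Those of Igf2 were Nt5dc2 (0.89), Inf2 (0.85) and Pdlim4 (0.85). Igf1r was closest to Ddx27 (0.89), Zpr1 (0.86) and Med10 (0.86), and Igf2r to Pbx2 (0.90), Nr2f6 (0.90) and Rraga (0.89). No collagen gene was among the 3 closest of these 7 genes. Genes beyond the closest 3 were not examined, so this does not set the 7 apart from Igf1 and Igfbp7.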

How the data were processed

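The deposited value table holds linear signal intensities of 45101 Affymetrix probe sets on 12 arrays, made by the authors with GCOS, per the submitters' processing notes. Their settings are unknown here. Trimmed means (2%) differed between arrays from 105 to 131, so arrays were scaled to a common one. Signals were floored at the 20th percentile (4.54) and taken to log2. The platform annotation gave 1 symbol to 34958 probe sets and several to 932 (9211 were unnamed here). The brightest probe set stood for a gene, and genes above the 40th percentile (18.1) were tested. limma 3.58.1 (R 4.3.3) fitted 12 arrays with the pair as a block and an intensity trend, with Benjamini-Hochberg adjustment over all 11624 genes; separate effects for the 3 models were a second fit. Pairs come from the sample labels. With no animals named, p-values measure the spread between pairs. Precision is limited by the number of arrays. Scripts were tested on simulated data.

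Genes named are the 9 members, up to 3 called genes with the largest change per pathway list and the 3 closest patterns per member; others were named after their values were seen. The members and lists were chosen with earlier results of these data known. Alternatives covered scaling, floor, filter, probe-set rule, trend, the pair term, each pair left out and a sign-flip test. Upstream sequences come from RefSeq (GRCm38.p6), matched by symbol for 9 of 9 genes. Marker lists, not used for naming cells, comprised cardiomyocyte, fibroblast, activated fibroblast, macrophage, endothelial, smooth muscle, adipocyte, mesothelial, lymphocyte, liver and skeletal muscle genes.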

Additional observations from a re-analysis of the deposited data

How the results depend on the processing

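Igf1 and Igfbp7 had means of 0.86 to 1.10 and 0.50 to 0.92 over 15 alternatives each, most of which could not turn their direction. The floor, filter, trend, pair term and sign-flip settings left both means unchanged. With all 6 ratios of each gene positive, leaving out a pair could not turn the sign either. The direction held in the settings that could turn it: signals as deposited, quantile normalisation and the mean of probe sets. Neither gene had a limma adjusted p under 0.05 with no filter, where 0 of 18194 genes were called (3703 at an unadjusted p under 0.05). The number of IGF genes called higher over the 6 pairs was 2 mainly, 0 with no filter, 1 without the replicate block (pair term), where Igf1 was not called, and 2 to 5 with each pair left out in turn. With signals as deposited it was 3, and the calls over all genes split into 692 higher and 108 lower in place of 600 and 662, with medians of all genes moved to -0.23 in TAC 1 day and 0.31 in TAC 1 month; all genes called were 241 without the trend, 473 without the replicate block and 694 with the mean of probe sets, against 1262. Leaving out pairs in the model fit was chosen after seeing the data. In TAC, 1 gene was called mainly, 0 with no filter, with the mean of probe sets or without the trend. With a TAC pair left out it was 0 to 2. In MI it was 1 mainly, 2 as deposited, 0 under those same 3 settings and 1 to 6 with a TAC pair left out. In TAC minus MI it was 0 in every fit that kept both MI pairs. With no filter or without the trend, 0 of all genes were called in TAC or MI. The 2-fold counts moved in TAC 1 month from 1 to 4 as deposited and 2 with quantile normalisation, in MI 1 month from 2 to 3 as deposited and 1 with the mean of probe sets, and in MI 1 week from 4 to 5 as deposited and 3 with quantile normalisation. Of the pathway genes, 3 were called higher and 8 lower mainly. These counts were 0 and 0 with no filter or without the trend, and 0 and 1 with the mean of probe sets. They were 1 and 1 without the replicate block and 0 to 2 and 0 to 7 with a pair left out. As deposited 0 were called lower. Calls over all genes also fell to 256 to 295 without TAC 1 week, TAC 1 month, MI 1 week or MI 1 month.

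Signs that turned: the mean of Igf2r was 0.078 as deposited, 0.071 with the mean of probe sets, and with a pair left out it ran from -0.12 to 0.043 (above 0 without TAC 1 day, TAC 1 month or MI 1 month); that of Igf1r ran from -0.031 to 0.095 (below 0 without TAC 1 day or MI 1 week); that of Insr was 0.017 with the mean of probe sets. In TAC, Igfbp5 was 0.067 as deposited, 0.20 with the mean of probe sets and up to 0.25 with a pair left out (TAC 1 day), down to -0.23. Igf1r was -0.015 with quantile normalisation and -0.19 (without TAC 1 day) to 0.13 with a pair left out, and Igfbp6 was -0.25 (without TAC 1 month) to 0.80. In MI, Igf2 was -0.28 with the mean of probe sets and -0.10 (without MI 1 week) to 0.88 with a pair left out, and Igf2r was -0.13 (without MI 1 week) to 0.47. In TAC minus MI, Igf2 was 0.042 with the mean of probe sets. None of these had passed the test except Insr. The cause was not tested.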
